A study of Mus musculus with 11 samples.

Results

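A group of 10 genes of monocytes and macrophages was followed through marrow endothelial cell libraries, as traces of mononuclear phagocytes in a population sorted for another cell type. The 10 genes (*Csf1r*, *Cd68*, *Adgre1*, *C1qa*, *C1qb*, *C1qc*, *Tyrobp*, *Fcer1g*, *Laptm5* and *Ccr2*) were chosen by symbol, each matched through its Entrez identifier to 1 of the 27179 genes in the count table. The 11 libraries were made with the Clontech SMART-Seq v4 Ultra Low Input kit from EMCNhi CD31hi bone marrow endothelial cells of BALB/c mice aged 8 to 10 weeks. Control libraries (n = 2) came from healthy mice. Non-met libraries (n = 6) and met libraries (n = 3) came from mice bearing the RFP-labelled mammary carcinoma 4T1.2, met being the marrow in which RFP marked metastatic tumour and non-met the marrow without tumour in such mice. Each pool held between 1 and 4 mice, with 2 control pools and 4 tumour-burdened pools. Of the tumour-burdened pools, the first supplied non-met 1 and 5 without a met library. From pool 2 there were 3 libraries (non-met 2 and 6, with met 1 beside them). Met 2 was paired with non-met 3 (pool 3), and met 3 was paired with non-met 4 (pool 4). Some non-met libraries therefore share their animals, and P values count them as separate samples. The sort removed cells carrying CD45, the pan-leukocyte surface protein, or Ter-119, the red cell antigen, so that mononuclear phagocytes were gated out by design.

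Mononuclear phagocytes are the monocytes that circulate from the marrow, the macrophages that live in tissue, and their relatives. Their survival depends on CSF1R, the receptor tyrosine kinase for the growth factors CSF1 and IL-34. CCR2 is the chemokine receptor that lets inflammatory monocytes leave the marrow. Tissue macrophages carry F4/80, the adhesion-type receptor encoded by *Adgre1*, and macrophages are the main source of C1q, the recognition subunit of the classical complement pathway, which is built from the C1QA, C1QB and C1QC chains. In marrow, macrophages support red cell formation and the retention of blood stem cells, and tumour-associated macrophages are a known component of mammary carcinoma.

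Total counts ran from 733342 in non-met 4 to 19539761 in control 1, so that 3 reads, the floor used here for detection, corresponded to between 0.147 and 5.43 CPM. CPM, counts per 1000000, was taken over a library's total after trimmed mean of M values (TMM) scaling. The endothelial list of 10 genes was measured in every library, and *Ptprc*, which encodes CD45, had 255 reads in control 1, 205 in met 2 and 0 in the other 9 libraries. These levels are from bulk RNA, in which fewer cells of a type and less RNA per cell cannot be told apart. Granulocyte genes were not at 0: their 13 genes summed to 80.2 to 359 CPM in control, 397 to 5273 CPM in non-met and 35.6 to 204 CPM in met libraries.

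The promoters of both C1q chains with an entry and of *Fcer1g* and *Cd68*, detected in 7 and 5 libraries, are shown, as the 250 bases before the transcription start in RefSeq (GRCm38.p6, all on the minus strand, 5′ to 3′). Capitals mark the PU.1 core GAGGAA, read on both strands, so that TTCCTC is the same motif on the other strand. PU.1, encoded by *Spi1*, is the transcription factor of the myeloid lineage. The windows are *C1qb* at chr4:136886201-136886450, *C1qc* at chr4:136892915-136893164, *Cd68* at chr11:69666171-69666420 and *Fcer1g* at chr1:171234350-171234599.
C1qb: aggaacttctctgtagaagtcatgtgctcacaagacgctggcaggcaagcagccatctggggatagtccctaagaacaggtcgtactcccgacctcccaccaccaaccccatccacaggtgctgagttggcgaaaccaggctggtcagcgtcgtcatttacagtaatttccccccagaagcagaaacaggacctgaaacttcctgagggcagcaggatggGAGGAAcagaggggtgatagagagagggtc
C1qc: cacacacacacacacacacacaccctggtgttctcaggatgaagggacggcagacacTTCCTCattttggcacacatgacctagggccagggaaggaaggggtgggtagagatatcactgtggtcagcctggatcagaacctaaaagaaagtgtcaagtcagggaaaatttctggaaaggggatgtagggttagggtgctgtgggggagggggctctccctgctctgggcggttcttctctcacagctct
Cd68: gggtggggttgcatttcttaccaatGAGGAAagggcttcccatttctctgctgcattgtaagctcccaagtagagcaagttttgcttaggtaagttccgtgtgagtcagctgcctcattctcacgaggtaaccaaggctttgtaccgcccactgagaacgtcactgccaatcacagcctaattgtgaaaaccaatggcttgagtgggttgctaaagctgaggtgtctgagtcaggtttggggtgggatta
Fcer1g: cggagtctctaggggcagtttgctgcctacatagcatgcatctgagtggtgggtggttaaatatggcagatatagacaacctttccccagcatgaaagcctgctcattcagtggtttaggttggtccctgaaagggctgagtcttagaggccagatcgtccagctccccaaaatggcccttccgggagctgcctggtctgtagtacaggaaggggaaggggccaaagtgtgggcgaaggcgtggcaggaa
Of the 10 genes, 6 had a promoter entry and 4 of these 6 held the motif, against 7639 of 32851 RefSeq promoter windows of the same length (23.3%). The match began 30 bases before the start of *C1qb* on its own strand, 193 bases before that of *C1qc* on the opposite strand and 225 bases before that of *Cd68* on its own strand. The *Fcer1g* window held no match to these letters. A match is a description of the sequence and was not tied to binding of any factor in these cells.

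The C1q chains and *Ccr2* were not detected. *C1qa* (Entrez 12259, chromosome 4, 136895916 to 136898844), *C1qb* (12260, 136880126 to 136886200) and *C1qc* (12262, 136889801 to 136892936) lie side by side in 18719 bases of chromosome 4 (mm10/GRCm38), and all 3 had 0 reads in all 11 libraries. *Ccr2* (12772, chromosome 9, 124101918 to 124109140) also had 0 reads in all 11 libraries. Over the pooled libraries, 0 reads allow a level of up to 0.0487 CPM. By group the limit was 0.115 CPM for control, 0.156 CPM for non-met and 0.185 CPM for met, counting error only. Being at 0 in every library was common in these data: it held for 4 of the 10 genes (40.0%) and for 7525 of 23458 named genes (32.1%).

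Of the 4 CCR2 ligands, *Ccl7* and *Ccl8* were at 0 reads as well, *Ccl12* had 73 reads in control 1 and 0 elsewhere, and *Ccl2* had 291 reads in non-met 1 and at most 11 in the others. The only one tested, *Ccl2*, was not called in any comparison. A list of C1r, C1s, C1q receptors and later complement genes held 10 genes, of which 9 were tested. Its highest mean levels were those of *Cd93* (1141 CPM), *Calr* (488 CPM), *C3* (74.3 CPM) and *C1qbp* (53.9 CPM), and *C3ar1* was at 0 reads. *Cd93*, a transmembrane glycoprotein of endothelial and myeloid cells first described as a C1q receptor, had reads in all 11 libraries, from 853 in non-met 4 to 20307 in control 1. It rose in met against non-met libraries by 0.60 on the log2 scale (SE 0.137, adjusted P = 0.0498, voomLmFit) and against control by 0.81 (adjusted P = 0.0116), and the met against non-met call was lost in 15 of its 25 alternatives, among them the mouse pool as a fixed block (0.43, adjusted P = 0.9997) or a random block (adjusted P = 0.0512) and the other 3 tools. Leaving out non-met 1, 4, 5 or 6 or any met library ended that call (adjusted P = 0.0775 to 0.407), and leaving out control 1 or met 3 ended the call against control (adjusted P = 0.0762 and 0.0824). The call against control was lost in 6 of 24 alternatives, among them the other 3 tools (adjusted P = 0.280 to 0.886). Libraries in which it was read held no read of any C1q chain.

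*Csf1r* (Entrez 12978, chromosome 18) had reads above the floor in 2 libraries. It had 479 reads (69.5 CPM) in non-met 2, 183 reads (34.7 CPM) in met 2, 1 read in met 3 and 0 in the other 8, both controls included. The 2 libraries with *Csf1r* came from different pools, and the other libraries of those pools had none. The met mean was 11.6 ± 20.0 CPM (SD, n = 3) and the non-met mean 11.6 ± 28.4 CPM (SD, n = 6). The groups overlapped, and the fitted difference was 1.27 on the log2 scale with a 95% interval of -3.68 to 6.21 (adjusted P = 0.942, voomLmFit).

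Reads of *Il34*, a ligand of CSF1R, were found in both controls and were at or below the floor in all other libraries. *Il34* had 221 reads in control 1 and 512 in control 2 (10.8 and 90.6 CPM), 0 in all 6 non-met libraries and at most 2 in the met libraries. Its control mean of 50.7 CPM, which rested mostly on control 2, was at least 325-fold higher than the non-met floor of 3 reads over the group. Being above the floor in the controls alone, *Il34* was tested through the group in which it was high. It fell in non-met against control (adjusted P = 0.0462, voomLmFit). That call was kept in 4 of 24 alternatives, over which the adjusted P ranged from 0.00403 to 0.648. Leaving out any library other than control 1 ended it, with adjusted P between 0.05002 and 0.222. In met against control *Il34* did not pass (adjusted P = 0.0989). The receptors of the list with the highest mean levels, *Csf2rb2* (394 CPM over all 11 libraries), *Csf2rb* (378 CPM) and *Kit* (135 CPM), were read in every library. *Csf1* was at 108 and 83.0 CPM in the controls and at 13.7, 9.10 and 19.2 CPM in met 1, 2 and 3. In non-met libraries *Csf1* ranged from 5.43 to 180 CPM with a median of 53.9 CPM, and its difference in met against non-met did not pass (adjusted P = 0.834, voomLmFit). Of the 8 genes of the CSF1R ligand and myeloid growth factor receptor list, all tested, 1 (*Il34*) was lower in non-met than in control and none was called in the other 2 comparisons.

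*Adgre1* (Entrez 13733, chromosome 17, 57358581 to 57483529) was detected in non-met libraries and in no other. It had 431 reads (62.6 CPM) in non-met 2, 53 reads (28.1 CPM) in non-met 5 and 0 in the other 9 libraries. With 4 of 6 non-met libraries at 0, the non-met level overlapped that of both other groups. The difference in met against non-met did not pass (adjusted P = 0.773, voomLmFit). The gene overlaps *Gm18069* and *Gm20243* on the annotation, and strand-specific counting is not stated, so reads of these loci may not be separable. The same limit holds for *Csf1r*, which overlaps *Mir6983* and *Gm52352*, and for *Laptm5*, which overlaps *Gm38599*.

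The lysosomal proteins were found in control as well as tumour-bearing animals. *Cd68* (Entrez 12514, chromosome 11, 69664213 to 69666170), a heavily glycosylated protein of late endosomes in macrophages, had 36 and 50 reads in the 2 controls (1.76 and 8.85 CPM). In non-met libraries it had 405 reads in non-met 2 (58.8 CPM), 10 in non-met 4 (18.1 CPM) and 0 in the other 4. In met libraries it had 153 reads in met 3 (17.6 CPM), 1 in met 1 and 0 in met 2. *Laptm5* (Entrez 16792, chromosome 4, 130912890 to 130936148), a lysosomal membrane protein of blood cells in general, had 60 and 260 reads in the controls (2.93 and 46.0 CPM). In non-met libraries it had 263 reads in non-met 1 (47.4 CPM), 29 in non-met 2 (4.21 CPM), 1 in non-met 5 and 0 in the other 3, and in met libraries 181 in met 3 (20.8 CPM) and 0 in met 1 and 2. Both controls held both genes, and neither group of tumour-bearing animals stood apart from them.

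*Fcer1g* was the most widely detected of the 10 genes. It encodes the FcR gamma chain, the adaptor that carries an immunoreceptor tyrosine-based activation motif (ITAM) for Fc and other receptors. *Fcer1g* (Entrez 14127, chromosome 1, 171229572 to 171234349) had reads above the floor in 7 libraries. These were control 1 with 609 reads (29.8 CPM), non-met 1, 2, 3 and 6 with 157, 363, 101 and 203 reads (28.3, 52.7, 31.4 and 180 CPM), and met 1 and 3 with 321 and 237 reads (141 and 27.2 CPM). Control 2, non-met 4 and non-met 5 had 0 and met 2 had 1. Every group thus spanned undetected and detected libraries. On a per-length scale *Fcer1g* was also first, at a mean of 67.9 RPKM, which is CPM per kilobase of gene model, over the 11 libraries, against 9.52 for *Cd68*, 6.26 for *Tyrobp*, 4.62 for *Laptm5*, 2.54 for *Adgre1* and 2.45 for *Csf1r*. The libraries behind each mean spread so widely (the highest library of *Csf1r* held 66.6% of its summed CPM, that of *Adgre1* 69.0%) that the order of neighbours after *Fcer1g* is not a difference beyond their spread.

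*Tyrobp* encodes DAP12, the other ITAM adaptor, which pairs with the TREM receptors. *Tyrobp* (Entrez 22177, chromosome 7, 30413782 to 30417582) had 68 reads in control 1 (3.32 CPM), 127 in non-met 1 (22.9 CPM), 113 in met 3 (12.97 CPM) and 0 in the other 8. One library of each group therefore held the gene. Its receptor partners were as scattered: *Trem1*, an activating receptor of neutrophils and monocytes, had 421 reads in non-met 1, 54 in non-met 6 and 0 elsewhere, and *Trem2*, its macrophage relative, had 47 reads in control 1 and 0 elsewhere. *Syk*, the kinase recruited by both adaptors, was above the floor in 7 libraries at a mean of 32.1 CPM, after the Src family kinase *Lyn* (101 CPM in 10 libraries) and before *Fgr* (19.7 CPM) and *Btk* (13.2 CPM). Of the 15 ITAM partners and downstream kinases, 7 were tested and none was called in any comparison.

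**Figure D1:**
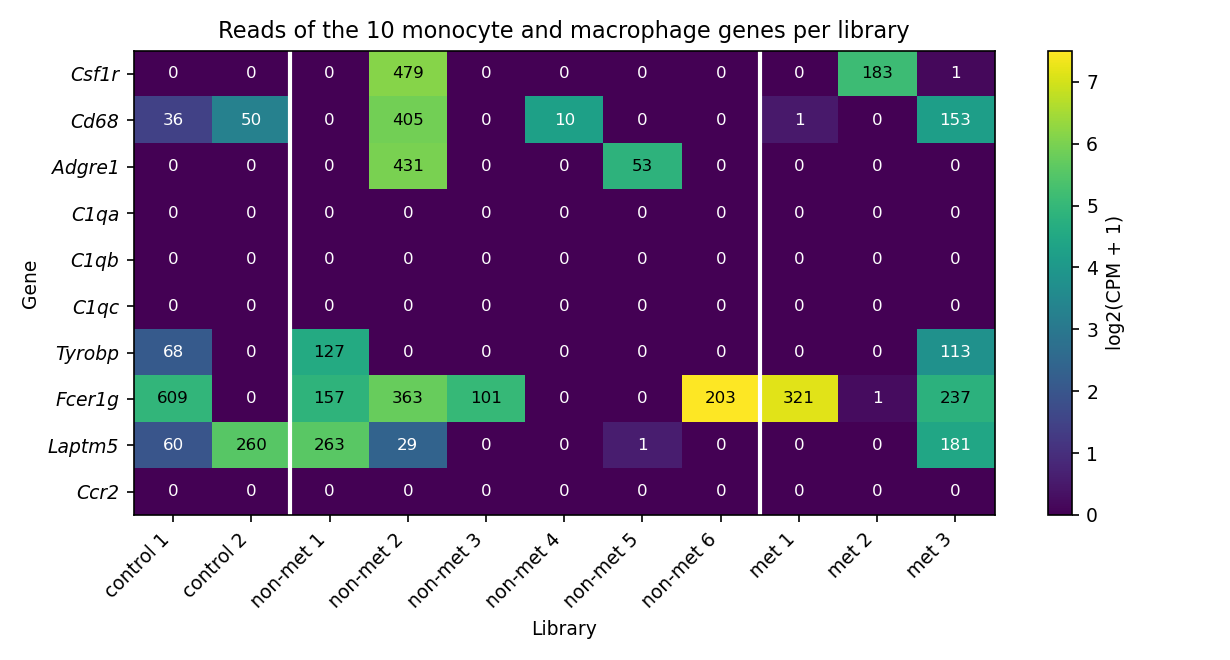
Reads (the number in each cell) of each of the 10 genes (vertical axis) in each of the 11 libraries (horizontal axis, white lines between the groups), with the colour giving log2(CPM + 1). *C1qa*, *C1qb*, *C1qc* and *Ccr2* are at 0 throughout, and the brightest cells are those of *Fcer1g* in non-met 6 and met 1, at 203 and 321 reads.

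The Fc receptors that use the FcR gamma chain were followed beside it. *Fcgr2b*, the inhibitory receptor that needs no such chain and is a known product of sinusoidal endothelium, had reads in all 11 libraries, from 321 to 4415. *Fcgrt*, the neonatal Fc receptor of endothelium and macrophages, had the highest mean of its list at 1297 CPM. *Fcgr3*, which requires the chain, was above the floor in 7 libraries, with its most reads in non-met 1 (349), and *Fcgr4* had 14 reads in non-met 2 and 0 elsewhere. *Fcgr1*, the high-affinity IgG receptor of macrophages, was at 0 in all 11 libraries. The other partners of the chain in FcεRI, the IgE receptor of mast cells and basophils, were above the floor in a single library: *Ms4a2* had 630 reads and *Fcer1a* 416 reads in non-met 2, where *Fcer1g* had 363. *Cpa3*, a mast cell protease gene, was at 0 in all 11 libraries. *Cma1*, another mast cell gene, had 106 reads (56.2 CPM) in non-met 5 and at most 1 elsewhere. None of the 3 tested Fcγ receptor genes was called in any comparison.

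The 10 genes did not appear as a set. Of the 110 pairs of a gene and a library, 24 were above the floor, 4 had between 1 and 3 reads and 82 had 0. The lowest count above the floor was 10 reads and the highest 609, so that a gene was either read at least that often or at or below the floor. Scaled to the smallest library, 20 of the 24 pairs stayed above the floor. Pairs above the floor numbered 6 of 20 in control, 12 of 60 in non-met and 6 of 30 in met libraries. Every library held at least 1 of the genes, and none held more than the 5 of non-met 2. Among the 15933 named genes with any read, 23.4% were above the floor in at most 1 library and 62.0% in at most 7. Detection in 2 to 7 of 11 libraries was thus a frequent pattern in these low-input data.

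**Figure D2:**
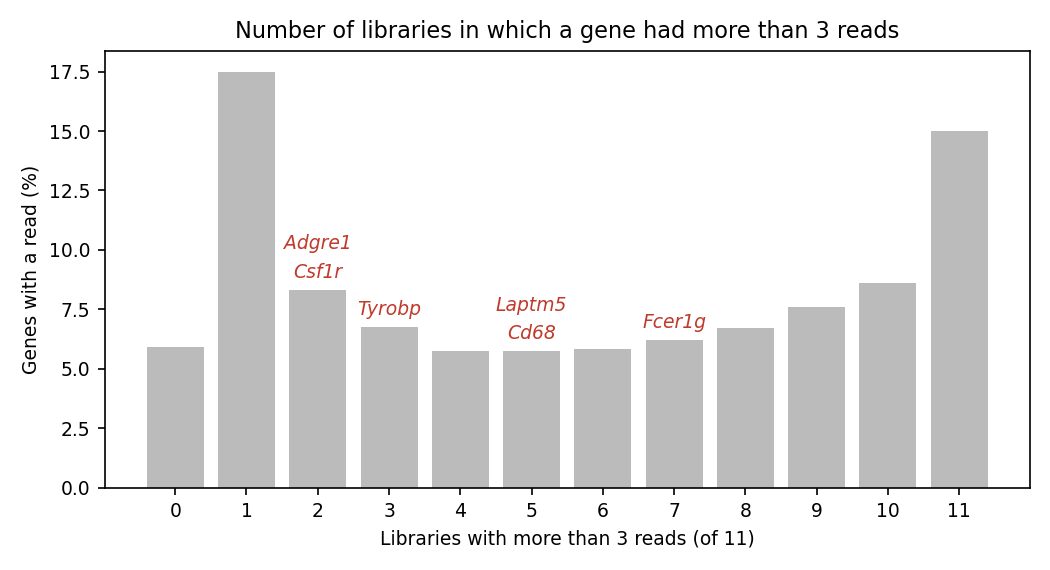
Grey bars give the percentage (vertical axis) of the 15933 named genes with a read that had more than 3 reads in each number of the 11 libraries (horizontal axis), and the 6 detected genes are named above the bar of their own number. *Csf1r* and *Adgre1* are at 2 libraries, *Tyrobp* at 3, *Cd68* and *Laptm5* at 5 and *Fcer1g* at 7, between the high bars at 1 library (17.5%) and 11 libraries (15.0%).

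Which genes were found together differed between libraries. The genes *Csf1r*, *Cd68* and *Adgre1* were together above the floor in non-met 2 alone, the library that held 34.9% of all 4896 reads of the 10 genes. *Tyrobp* was found in 3 libraries and in each of them together with *Fcer1g* and *Laptm5*. *Csf1r* and *Tyrobp* were in no library together. Met 2 held *Csf1r* and *Ptprc* and no other of these genes above the floor. Non-met 2, with the most reads of the 10 genes, had 0 reads of *Ptprc*.

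The summed level of the 10 genes overlapped between the groups. It was 37.8 and 54.9 CPM in control 1 and 2. In non-met 1 to 6 it was 98.6, 248, 31.4, 18.1, 28.6 and 180 CPM. In met 1 to 3 it was 142, 34.9 and 78.6 CPM. On a log2(CPM + 1) scale the means were 5.54 ± 0.37 (SD, n = 2), 6.04 ± 1.53 (SD, n = 6) and 6.21 ± 1.00 (SD, n = 3), and met minus non-met was 0.17, less than the spread of either group. Leaving out each library in turn moved this difference between -0.30 and 0.69. Within pools it was -0.57 in pool 2, 0.15 in pool 3 and 2.06 in pool 4, with no common direction.

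**Figure D3:**
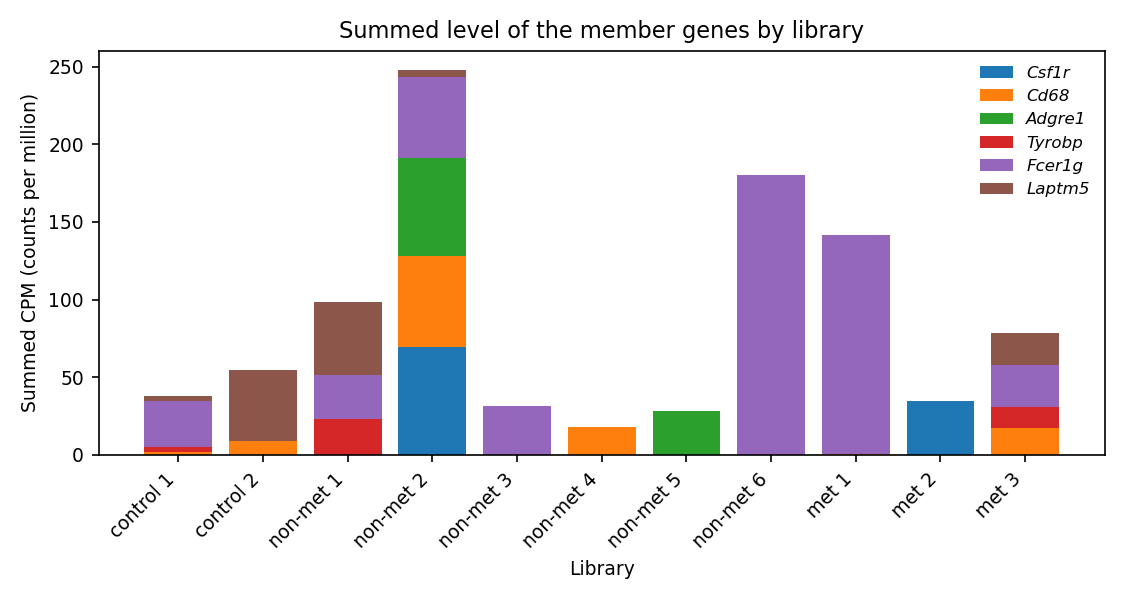
Summed level of the 10 genes in CPM (vertical axis, from 0) in each library (horizontal axis), with a colour for each of the 6 detected genes. Non-met libraries span 18.1 to 248 CPM and hold both the lowest and the highest bar, and *Fcer1g* alone makes up the bars of non-met 3 and non-met 6.

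Within pools, where met and non-met marrow came from the same mice, single genes moved both ways. In pool 2 *Csf1r* and *Adgre1* were at 479 and 431 reads in non-met 2 and 0 in both non-met 6 and met 1, so that the non-met libraries of that pool differed as much as non-met 2 and met 1 did, whereas in pool 3 *Csf1r* was at 183 reads in met 2 and 0 in non-met 3. In pool 4 *Tyrobp*, *Fcer1g* and *Laptm5* were at 113, 237 and 181 reads in met 3 and 0 in non-met 4, whose total count was the smallest of all libraries. *Cd68* in pool 4 was at 17.6 CPM in met 3 and 18.1 CPM in non-met 4, although the reads numbered 153 and 10.

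None of the 10 genes was called by voomLmFit in any comparison. Met against non-met compares endothelium of marrow with metastatic tumour to that of marrow without tumour. In it, 6 of the 10 genes passed the filter on low counts and 0 were called, where 0.427% of the 11947 genes tested were called. In met against control 0 of 6 were called, where 1.2% of all genes were. In non-met against control 0 of 6 were called, where 0.636% of all genes were. No gene of the 6 reached an unadjusted P under 0.05 by voomLmFit in any of the 3 comparisons, where 7.25%, 14.1% and 17% of all genes tested did in met against non-met, met against control and non-met against control. With 6 genes, counts of 0 are near these shares. Exact two-sided permutation tests of each gene over libraries gave P between 0.286 and 1.0 in 17 tests, with overlapping groups in all 17. For *Adgre1* in met against control, where all 5 libraries were at 0 reads, there was nothing to test. These tests could not go below 0.1 in met against control. With ties between libraries at 0 reads, *Adgre1* and *Tyrobp* could not go below 0.0833 in met against non-met, nor *Csf1r* below 0.25 and *Fcer1g* below 0.107 in non-met against control, so that 8 of the 17 tests could have passed 0.05.

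DESeq2 called 1 gene, *Adgre1*, in met against non-met (adjusted P = 9.86e-09, with 2.73% of all genes called by that tool) and in non-met against control (adjusted P = 1.09e-06, with 2.03% called). In both comparisons the call sets the reads of non-met 2 and 5 against libraries at 0. *Adgre1* was among the genes tested through its non-met reads alone, the group in which it was high. Its differences by DESeq2 were -23.3 and 23.9 on the log2 scale, with no reads in the other group of each comparison. In met against control DESeq2 called none of the 6 genes tested, with 2.04% of all genes called. It gave no P value for *Csf1r*, *Tyrobp* and *Laptm5* in any comparison, so that only the other 3 genes could be called by that tool. The edgeR quasi-likelihood test called none of the 6 genes in any comparison, where it called 0.142%, 0.0837% and 0.117% of all genes in met against non-met, met against control and non-met against control. Limma-trend also called none of them, against 0.0167%, 0.0753% and 0.067% of all genes in the same order. The quasi-likelihood test gave *Adgre1* an unadjusted P of 0.0468 in met against non-met, where 8.38% of all genes were under 0.05 by that test.

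The intervals were wide, those of met against non-met on both sides of 0. In met against non-met the 5 genes with reads above the floor in both groups had a median fitted difference of -0.71 on the log2 scale, with 4 of 5 lower, against 0.08 over all genes tested. The unweighted means of log2 CPM, which limma-trend compares, went the other way for 3 of those 4 and were higher in met for 4 of the 5: *Csf1r* by 1.07, *Tyrobp* by 0.74, *Fcer1g* by 0.34 and *Cd68* by 0.0922, with *Laptm5* at -0.0463. The median over all genes tested was 0.26 by limma-trend, above the values of *Cd68* and *Laptm5*. The direction of the 5 genes therefore depended on the method. With *Adgre1* at the bound set by the floor, the median of 6 was -0.80. *Cd68* had a fitted difference of -1.06 (95% interval -6.08 to 3.96), *Fcer1g* one of -0.71 (-5.95 to 4.52) and *Laptm5* one of -0.89 (SE 2.30), in met against non-met. Against control, *Fcer1g* had a fitted difference of 4.83 for met (-1.93 to 11.59) and of 5.54 for non-met libraries (-0.32 to 11.41), both of which turned negative without control 2, in which it had 0 reads (-2.04 and -1.30). The fitted differences of *Laptm5* against control were -4.54 for met (-9.39 to 0.32) and -3.65 for non-met (-7.30 to 0.01). Without control 1 they were -6.62 and -5.72, and without control 2 they were -2.70 and -1.77. The quasi-likelihood test gave -1.81 and -1.48. These 2 comparisons share the control libraries.

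**Figure D4:**
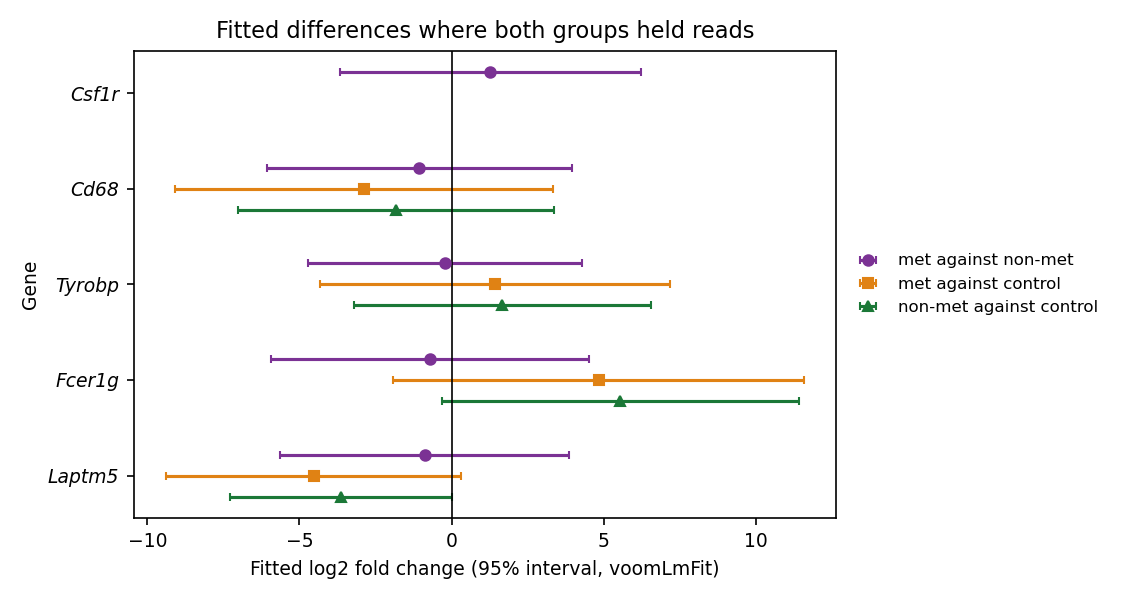
Fitted log2 fold changes with 95% intervals (horizontal axis, voomLmFit) of the genes (vertical axis) with more than 3 reads in a library of both groups, for the 3 comparisons. Every interval includes 0, and the widths run over several log2 units.

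Lists of other monocyte and marrow macrophage genes held no called gene. Of the 16 monocyte genes, 13 were tested and none was called in any comparison. Their summed level was 480 to 901 CPM in control, 650 to 1672 CPM in non-met and 320 to 579 CPM in met libraries. It was lower in the met than in the non-met libraries of pools 2, 3 and 4, although the genes with most reads in it, among them *Fn1* and *Nr4a1*, are not restricted to monocytes and were read in all 11 libraries. In pool 4 the sums were 579 CPM in met 3 and 650 CPM in non-met 4. *Nr4a1* alone was at 135 and 275 CPM there, and the direction in that pool rested on this gene. *Cd14*, the lipopolysaccharide co-receptor, averaged 112 CPM and was above the floor in 10 libraries. *Lyz2*, the lysozyme of monocytes, macrophages and neutrophils, had its most reads in non-met 2 (2137) and non-met 1 (1029) and 0 in met 1 and 2. *Itgam*, the CD11b chain of the complement receptor 3, had 101 reads in non-met 1, 27 in non-met 6 and 0 elsewhere. Of the 16 genes of marrow resident macrophages, 10 were tested, none was called, and *Marco*, *Spic*, *Clec4f*, *Vsig4* and *Cd5l* were at 0 in all libraries. *Mrc1*, *Vcam1* and *Maf* were read in all 11 libraries and are also known in sinusoidal endothelium. *Axl* was above the floor in all 11 libraries. *Mertk* was above it in 5, with most reads in control 1 (776) and met 2 (770). *Siglec1* had 130 reads in met 2, 35 in non-met 4 and at most 2 elsewhere. *Cd163* had 37 reads in non-met 4 and at most 3 elsewhere, and *Timd4* had 77 in met 3 and 8 in non-met 2. *Spi1* itself had 33 reads in non-met 6 and 0 in the other 10 libraries.

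The granulocyte list had no gene called by voomLmFit either. Of its 12 tested genes, 5 were above the floor in a library of both met and non-met groups. All 5 were lower in met, with a median fitted difference of -6.39 on the log2 scale, against 0.08 over all genes tested. The other 7 were at or below the floor in met libraries and were set at that bound, which places them lower by construction. With these bounds the median of the 12 was -7.03. *S100a8*, an abundant neutrophil calcium-binding protein, was at 675, 462, 110, 66.95, 672 and 952 CPM in non-met 1 to 6, at 0, 0 and 12.2 CPM in met 1 to 3 and at 6.55 and 90.1 CPM in the controls. The other abundant genes of the list were *S100a9* (mean 683 CPM, 11 libraries), *Ngp* (171 CPM, 9 libraries) and *Lcn2* (81.5 CPM, 7 libraries). Of the 8 pan-leukocyte genes, 6 were tested and none was called, with sums of 48.7 to 201 CPM in control, 242 to 644 CPM in non-met and 129 to 309 CPM in met. *Lcp1* (mean 228 CPM) and *Arhgdib* (55.2 CPM) were above the floor in all 11 libraries, while *Coro1a* was in 4 and *Cd52* in 3. The 10 endothelial genes were all tested, and 4 of them (*Pecam1*, *Cdh5*, *Tie1* and *Eng*) were higher in met than in non-met libraries, *Pecam1*, which encodes the sort marker CD31, by 0.89 on the log2 scale (adjusted P = 0.000451, voomLmFit). With the mouse pool as a fixed block, met and non-met marrow being from the same pools, the differences were 0.22 for *Pecam1*, 0.33 for *Cdh5*, 0.11 for *Tie1* and 0.0225 for *Eng*, and all 4 calls were lost (adjusted P = 0.9997). The quasi-likelihood test, DESeq2 and limma-trend called none of the 4 either, and without met 3 only *Pecam1* passed (adjusted P = 0.0287, against 0.0616, 0.519 and 0.571 for *Cdh5*, *Tie1* and *Eng*). *Emcn*, the other sort marker, rose by 0.91 in met against control (adjusted P = 1.72e-05, and 0.0581 and 0.238 without control 1 and met 3, the call being lost in 7 of 24 alternatives, among them the other 3 tools) and differed by 0.49 in met against non-met, which did not pass (adjusted P = 0.593). The part of these blood cell and endothelial levels in the values of the 10 genes was not tested.

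**Figure D5:**
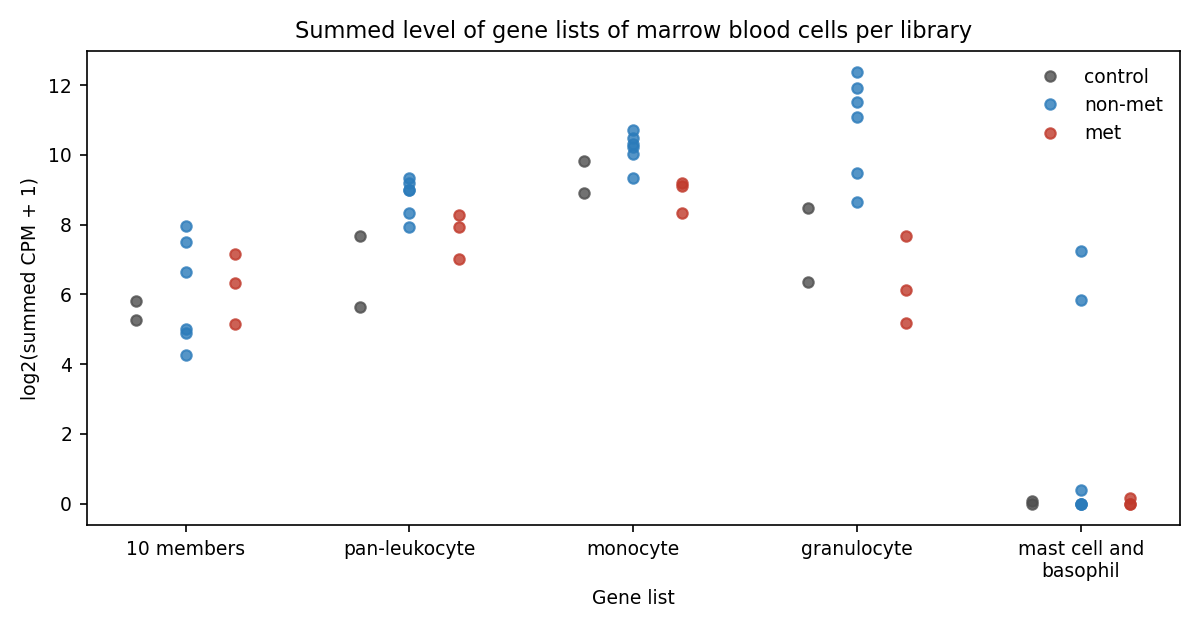
Summed level of the 10 genes and of 4 blood cell gene lists, as log2(summed CPM + 1) (vertical axis), with a point for each library, by list (horizontal axis) and group (colour). The granulocyte and the monocyte points of the 6 non-met libraries lie above those of the 3 met libraries, while the points of the 10 genes and of the pan-leukocyte list overlap between these groups.

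The genes whose pattern over the 11 libraries was most like the mean log2 CPM of the 10 genes were *Prdm10* (Pearson r = 0.925), *Ly96* (0.923), *Noc3l* (0.920), *Nupl2* (0.916) and *Mtr* (0.907). All 5 were above the floor in control 1, non-met 1, non-met 2 and met 3, the libraries with the most of the 10 genes. These correlations are a description over libraries that share depth and preparation. *Ly96*, or MD-2, is the co-receptor of TLR4 on myeloid and endothelial cells.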

How the data were processed

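The deposited values are raw read counts per Entrez gene, made by the authors with featureCounts on mm10 from SMART-Seq v4 libraries. The 11 single-library tables equal the series table. Strand-specific counting and molecular identifiers are not given in the sources used here. Of 27179 entries, 1904 without a current symbol, 1782 predicted and 35 ribosomal were left out (1.97% to 15.7% of a library's counts), following the study's filter. The remaining 23458 were scaled by TMM, filtered by filterByExpr (minimum count 10, minimum total 15) and fitted with voomLmFit with sample weights in one model of the 11 libraries (edgeR 4.0.16, limma 3.58.1, R 4.3.3), with a Benjamini-Hochberg threshold of 0.05 over 11947 genes. DESeq2 1.42.0, edgeR's quasi-likelihood test and limma-trend were alternatives. For list genes outside the 10, calls are those of voomLmFit unless a tool is named. The alternatives were followed only for list genes that voomLmFit called. CPM (counts per 1000000) used TMM-scaled library sizes, and log2 CPM a prior count of 2. Detection needed more than 3 reads. Intervals of fitted differences include the spread between libraries, and limits for 0 reads cover counting error only. The code was tested on simulated data. The labels give the pool of each library, so that libraries of one pool share animals. This pairing was used in blocked and within-pool alternatives. The members and lists were chosen with earlier results of these data known. All 10 members were named, with each list's up to 4 genes of highest mean CPM where described, its called genes, *Ptprc*, *Pecam1* and *Emcn*, and the 5 genes of most similar pattern. Other single genes (*Trem1*, *Trem2*, *Itgam*, *Fcgr1*, *Spi1*, *Cd209a*, *Mertk*, *Axl*, *Siglec1*, *Cd163*, *Timd4* and genes at 0 reads) were chosen after their values were seen. Promoter windows, gene positions and symbols came from RefSeq (GRCm38.p6). A gene of the marrow resident macrophage list, and the summed level of that list, are not reported here.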

Additional observations from a re-analysis of the deposited data

Results flagged for a closer look

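Among the 6 non-met libraries, 1 library stood far from the other 5 in 5 of the 6 genes with more than 3 reads in any of them. The criterion is passed by chance in about 1 in 20 groups of normally distributed values, but a gene read in a single library passes it by construction, and 5407 of the 13093 named genes with more than 3 reads in a non-met library passed it (41.3%). *Csf1r* was at 69.5 CPM in non-met 2 and 0 in the other 5. *Cd68* was at 58.8 CPM in non-met 2, above the 18.1 CPM of non-met 4. *Tyrobp* was at 22.9 CPM in non-met 1 and 0 in the others. *Laptm5* was at 47.4 CPM in non-met 1, above the 4.21 CPM of non-met 2. *Fcer1g* was at 180 CPM in non-met 6, above the 52.7 CPM of non-met 2. The libraries that stood apart came from pools 1 and 2, and the genes that set them apart differed between non-met 1, 2 and 6.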

How the results depend on the processing

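No member gene was called under 24 of 25 alternatives in met against non-met, 24 of 24 in met against control and 23 of 24 in non-met against control. The exceptions were DESeq2, which called 1 member (*Adgre1*) in met against non-met and in non-met against control. DESeq2 gave no P value for *Csf1r*, *Tyrobp* and *Laptm5*. The mouse pool as a fixed replicate block, on the tumour-burdened libraries, tested 9436 genes, called 28 and none of the 3 members tested. The pool as a random replicate block called 52 genes and no member. The fixed block turned the met against non-met difference to 0.72 for *Fcer1g* and 1.05 for *Laptm5*. The quasi-likelihood test turned *Csf1r* to -0.0056, *Tyrobp* to 0.17 and *Fcer1g* to 0.20. DESeq2 turned *Csf1r* to -0.0809 and *Fcer1g* to 0.0677, and limma-trend turned *Cd68* to 0.0922, *Tyrobp* to 0.74 and *Fcer1g* to 0.34. Without sample weights *Tyrobp* was 0.15. Excluding non-met 2 and met 3, chosen after seeing the data, *Fcer1g* was 0.20. Leaving out each library gave -2.19 to 0.53 for *Cd68*, -1.72 to 0.49 for *Tyrobp* and -2.48 to 1.97 for *Fcer1g*. The same gave -2.54 to -0.0807 for *Laptm5* and, in the 9 fits that still tested it, 0.88 to 2.51 for *Csf1r*. Against control, the *Fcer1g* difference ran from -2.04 to 7.46 (met) and from -1.30 to 7.05 (non-met), lowest without control 2. Averaging libraries of a pool turned the difference in the permutation test to -0.0749 for *Cd68* and 0.46 for *Laptm5*. For *Kdr*, lower in met than in control (-0.48), the difference became 0.0279 by the quasi-likelihood test, 0.0801 by limma-trend and 0.0345 with libraries of these groups alone, and ran from -0.52 to 0.38 over left-out libraries. The cause was not tested. The called genes of all 11947 depended on the method: 51 in met against non-met (2 by limma-trend to 326 by DESeq2), 143 in met against control (9 by limma-trend to 429 with no filter) and 76 in non-met against control (8 by limma-trend to 242 by DESeq2). Left-out libraries gave 16 to 87, 36 to 292 and 32 to 224. Scaling moved the split of higher and lower calls from 34 and 17 to 24 and 21 with RLE (met against non-met), from 82 and 61 to 63 and 73 by library size (met against control), and from 22 and 54 to 32 and 51 with RLE or 22 and 138 by library size (non-met against control). DESeq2 gave 21 higher and 305 lower (met against non-met) and 238 higher and 4 lower (non-met against control). Depth limits detection most in non-met 4.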

Other observations

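Osteoclasts are the bone-resorbing relatives of macrophages. *Ocstamp*, *Dcstamp*, *Calcr*, *Oscar* and *Atp6v0d2* were at 0 reads in all 11 libraries. *Mmp9*, also a neutrophil gene, had the highest mean of that list at 64.6 CPM. *Ctsk* had 338 and 160 reads in control 1 and 2, 365 in met 3 and at most 1 elsewhere. *Itgb3* had 217 and 264 reads in met 2 and 3 and at most 5 elsewhere. Of the osteoclast genes, 4 were tested and none was called by voomLmFit in any comparison. *Tnfrsf11a*, which encodes RANK, the receptor for the osteoclast differentiation factor and also known on endothelium, had 217, 192 and 357 reads in met 1, 2 and 3 (36.4 to 95.6 CPM) and at most 3 in the 6 non-met libraries, with 15 and 130 in the controls. The fitted difference in met against non-met was 6.13 on the log2 scale (SE 1.47) and did not pass (adjusted P = 0.071, voomLmFit). It was singled out after its values were seen. *Itga2b*, the megakaryocyte integrin CD41, rose in met against control (adjusted P = 0.0406, voomLmFit), a call lost in 18 of 24 alternatives and on leaving out any library other than control 2 and non-met 1 (adjusted P = 0.0513 to 0.159).

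Among genes of other cells, the dendritic cell list was led by *Bst2* (mean 103 CPM) and *Zbtb46* (92.2 CPM), which endothelium is also known to express. *Clec9a* followed at a mean of 27.1 CPM and was above the floor in 7 libraries. *Batf3* had 279 reads in met 3 and at most 1 elsewhere, and *Cd209a* had 208 in control 1 and 0 elsewhere. *Itgax* and *Xcr1* were at 0 reads. B cell genes summed to at most 121 CPM in any library, T and NK cell genes to at most 88.7 CPM and red cell genes to at most 125 CPM. Epithelial genes summed to 0.684 to 34.0 CPM in control, 0.901 to 112 CPM in non-met and 8.61 to 55.4 CPM in met libraries.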
